A study of Mus musculus with 12 samples.

Results

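Stromal growth factors that can act on cancer cells were examined in mouse pancreatic stellate cells (PSCs) as a group of 10 genes: the EGF family ligands *Hbegf*, *Ereg*, *Areg* and *Nrg1*, the FGF family ligands *Fgf7* and *Fgf2*, *Hgf*, and the PDGF and VEGF family ligands *Pdgfa*, *Vegfa* and *Vegfc*. The genes were looked up by symbol, and all 10 were found among the 39179 genes of the count table. PSCs of an SV40-immortalised clone from C57BL/6 mice, which is 1 clone and not a set of isolates, carried mCherry. They were grown for 72 h alone (mono-PSCs), with EGFP-labelled pancreatic cancer cells (PCCs) of an iKras mouse line kept on doxycycline (2W-PSCs), or with those PCCs and TagBFP-labelled macrophages (MØs) of the RAW264.7 line (3W-PSCs). All cultures were set up with the same total number of cells in a medium low in serum. PSCs were sorted as mCherry-positive cells without EGFP or TagBFP before RNA was extracted, and each culture gave 4 libraries, 12 in all, which the study calls biological replicates.

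Growth factors of these families are secreted or shed by stromal cells and bind receptor tyrosine kinases on neighbouring cells. EGF family ligands are made as membrane-bound precursors that metalloproteinases release to act on EGFR and the other ERBB receptors, FGF7 acts on an epithelial form of FGFR2, and HGF acts on MET. In pancreatic ductal adenocarcinoma, such factors are known as signals from fibroblasts to tumour cells, while VEGF and PDGF ligands act mainly on vessels and on the mesenchyme itself. The receptors of the PCCs were not measured in these libraries, which hold RNA of the sorted PSCs.

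Libraries were 3′ end counts, so levels were set side by side between genes without correction for length. No molecular identifiers are named, so copies of a fragment made in amplification could not be told apart from other reads. Total counts ranged from 4561817 to 8093368 per library, with the fewest in 2W-PSC replicate 2, and 1 count was worth 0.116 to 0.246 CPM, that is, counts scaled to a common library size. Levels below are CPM after TMM scaling over the 12 libraries, and log2 fold changes come from edgeR's quasi-likelihood test, with the standard error (SE) and a p-value adjusted over all genes tested. A gene was called when that adjusted p-value was under 0.05. A further test of the mean CPM was a two-sided exact permutation test, for which 4 libraries against 4 give p = 0.0286 at the least. That p-value was reached wherever the libraries of 2 cultures did not overlap, and it was not adjusted for the 30 such tests. In bulk RNA, a change in the share of cells that express a gene and a change in RNA per cell cannot be told apart.

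Sorted PSCs expressed markers of fibroblasts, at a lower sum in 3W-PSCs. The summed level of 13 fibroblast and stellate cell markers lay between 8435 and 10640 CPM in mono-PSCs, between 10070 and 10990 in 2W-PSCs and between 5921 and 7016 in 3W-PSCs. Among stellate cell markers, *Gfap* was at 0 in all 12 libraries and *Des* averaged 0.726 to 1.68 CPM. Of the fibroblast markers tested, 2 of 10 were called higher in 2W- than in mono-PSCs (*Acta2* and *Dcn*). In 3W- against mono-PSCs 3 of 11 were called lower (*Col3a1*, *S100a4* and *Thy1*, log2 fold changes -1.95, -2.30 and -0.996) and 1 higher (*Pdpn*, 0.89). In 3W- against 2W-PSCs 6 of 10 were called lower (*Acta2*, *Col1a1*, *Col3a1*, *Dcn*, *S100a4* and *Thy1*) and 1 higher (*Pdpn*). Beside these and the marker counts below, 0.839% of all genes tested were called higher in 2W- than in mono-PSCs. In 3W-PSCs 13.4% were called higher and 13.0% lower than in mono-PSCs, and 5.73% higher and 4.95% lower than in 2W-PSCs. Markers of the partner cells were also present. The 16 epithelial markers summed to between 1.32 and 3.30 CPM in mono-PSCs, between 77.2 and 150.8 in 2W-PSCs and between 58.6 and 98.2 in 3W-PSCs, with *Krt18* in the lead in the co-cultures and with *Cldn4* at 0 throughout. The 15 macrophage markers summed to between 9.56 and 10.8 CPM in mono-PSCs and between 12.5 and 18.9 in 2W-PSCs. In 3W-PSCs the sum lay between 33.4 and 70.8 CPM. *Cd14* alone averaged 6.44 CPM in mono-PSCs, 8.65 in 2W-PSCs and 22.8 in 3W-PSCs. *Csf1r* averaged 2.35 CPM in 2W-PSCs, which had no MØs, and 2.31 in 3W-PSCs. *Ptprc*, *Tyrobp*, *Spi1*, *C1qa*, *C1qb*, *Laptm5* and *Tnf* were at 0 in mono- and 2W-PSCs and averaged 0.258 to 2.69 CPM in 3W-PSCs. *Emr1* was at 0 throughout. Against mono-PSCs, all 5 epithelial markers tested were called higher in 2W-PSCs and all 8 in 3W-PSCs. In mono-PSCs these markers were below the limit on low counts, so that they had to differ there to be tested. Of the macrophage markers, 3 of 5 tested were called higher in 3W- than in mono-PSCs (*Mrc1*, *Csf1r* and *Cd14*) and 0 of 1 in 2W-PSCs. *Mrc1* and *Csf1r* had at most 0 and 0.348 CPM in a mono library, at a limit of 1.37. They passed the filter on low counts through the 3W libraries alone, so that they had to differ to be tested. Between 3W- and 2W-PSCs, 1 of 8 epithelial markers tested (*Lcn2*) and 1 of 5 macrophage markers tested (*Cd14*) were called, both higher. *Lcn2* had at most 1.228 CPM in a 2W library, at a limit of 1.417 in that comparison. It passed through the 3W libraries alone, so that it too had to differ to be tested. The part of all these markers in the results below was not tested, and the levels of the growth factors in PCCs and MØs were not analysed here. The library with the highest sum of both marker lists in 3W-PSCs, replicate 4, was the lowest 3W library for 8 of the 10 growth factors. Without it, the same growth factors were called as with it in each comparison with 3W-PSCs. That fit was no test of the markers' part, as the other 3W libraries also held at least 58.6 CPM of epithelial and 33.4 CPM of macrophage markers.

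**Figure D1:**
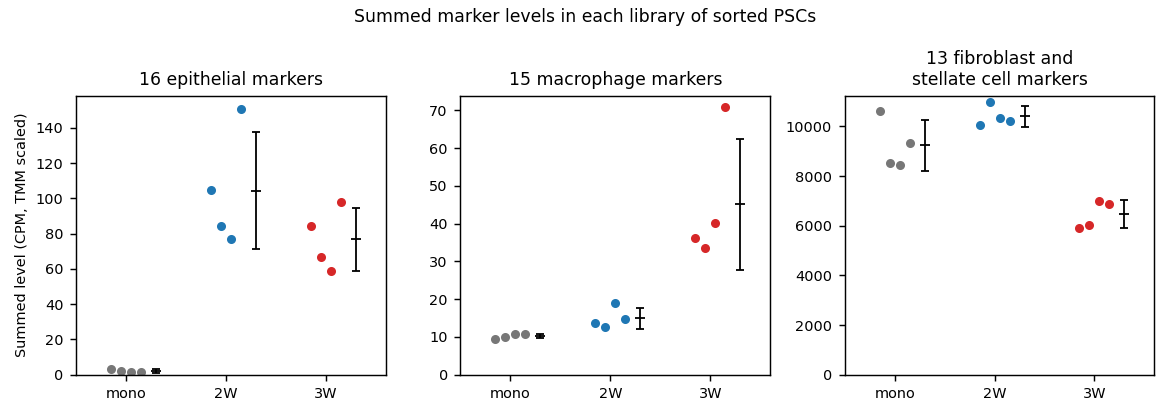
Summed level (CPM, TMM scaled) of 16 epithelial, 15 macrophage and 13 fibroblast and stellate cell markers in each library, for mono-, 2W- and 3W-PSCs. Points are libraries, and the bar beside them is the mean with the SD of 4 libraries. The epithelial sum was near 0 in mono-PSCs and 58.6 or more in both co-cultures, while the macrophage sum was highest in 3W-PSC replicate 4, at 70.8.

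Growth factor expression differed most between 3W-PSCs and mono-PSCs. These genes, like the lists of other genes below, were chosen with earlier results of these data known. The shares of all genes given beside their counts are therefore a description and not a test. In 3W-PSCs, 8 of the 9 genes tested were called higher than in mono-PSCs, beside 13.4% of the 11551 genes tested that were called higher, 13.0% called lower and 26.4% called in either direction. The 8 were *Hbegf*, *Ereg*, *Areg*, *Nrg1*, *Fgf7*, *Hgf*, *Vegfa* and *Vegfc*. Of these, *Areg* and *Hgf* passed the filter on low counts only or mainly through the 3W libraries, as given below. *Pdgfa* was not called, and *Fgf2* had too few counts to be tested. In 2W-PSCs against mono-PSCs, 0 of the 8 genes tested were called by edgeR, 3 had an unadjusted p-value under 0.05, and DESeq2 called 1. Of all 11199 genes tested there, 0.991% were called, 0.839% higher and 0.152% lower. Between 3W- and 2W-PSCs, 3 growth factors were called higher, *Fgf7*, *Ereg* and *Vegfc*, beside 5.73% of the 11513 genes tested that were called higher, 4.95% lower and 10.7% in either direction. With the replicate number as a block in the fit, *Ereg* stayed called, and *Fgf7* and *Vegfc* did not.

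The median log2 fold change of the growth factors tested was 1.82 in 3W-PSCs against mono-PSCs (9 genes), 0.50 in 2W-PSCs against mono-PSCs (8 genes) and 0.88 in 3W-PSCs against 2W-PSCs (9 genes). Over all genes tested these medians were 0.01, 0.02 and 0.00. The 3 comparisons share libraries in pairs and are not independent of each other. *Areg* passed the filter on low counts in 3W-PSCs against mono-PSCs through the 3W libraries alone, and *Hgf* passed with 1 mono library over the limit, so that these genes had to differ there to be tested. All 4 libraries of 3W-PSCs lay above all 4 of mono-PSCs for 5 of the 9 growth factors tested, beside 13.9% of all genes tested. The same held for 1 of the 8 tested in 2W-PSCs against mono-PSCs, *Hbegf*, beside 3.23%, and for 5 of the 9 in 3W-PSCs against 2W-PSCs, beside 11.6%. Of the genes not tested, *Fgf2* in 3W-PSCs and *Areg* in 2W-PSCs also lay above mono-PSCs without overlap. Summed over the 10 genes, the level lay between 202.5 and 295.7 CPM in mono-PSCs, between 267.8 and 361.2 in 2W-PSCs and between 357.1 and 579.8 in 3W-PSCs, and 3W-PSC replicate 4, the lowest of its culture, lay within the range of 2W-PSCs.

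**Figure D2:**
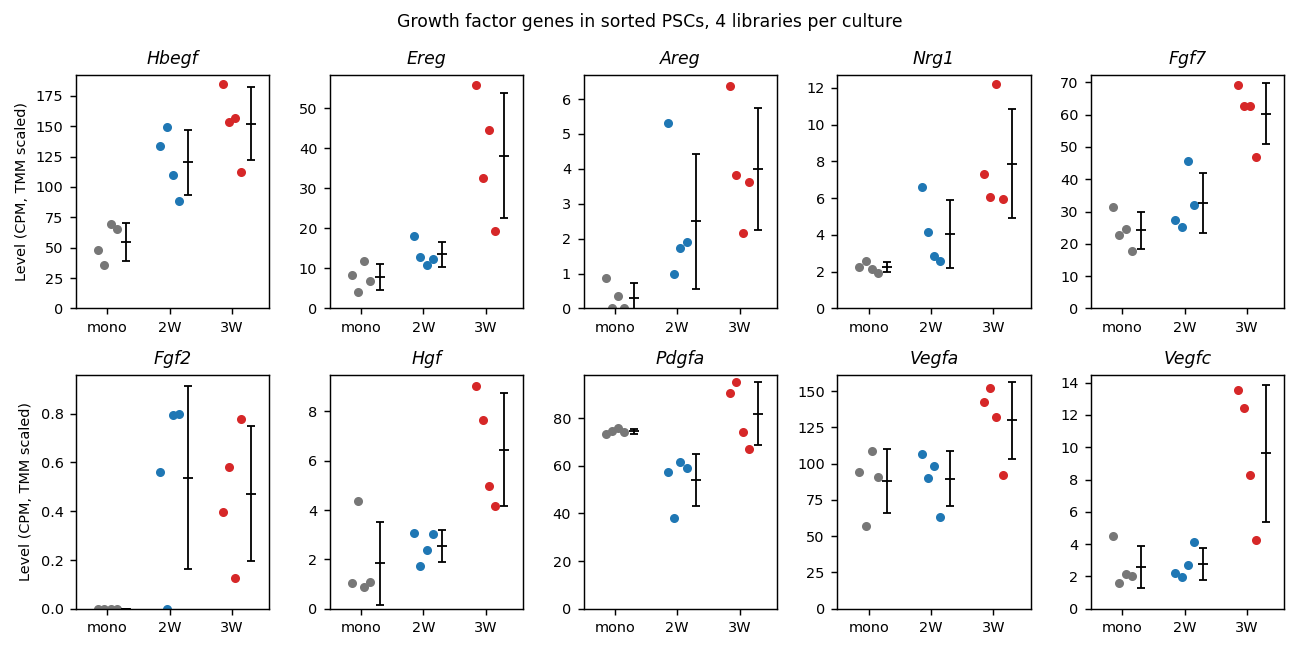
Level (CPM, TMM scaled, linear axes that start at 0) of the 10 growth factor genes in mono-, 2W- and 3W-PSCs. Points are libraries, and the bar beside them is the mean with the SD of 4 libraries. *Hbegf* in 2W-PSCs already lay above mono-PSCs without overlap, *Fgf7* and *Ereg* were highest in 3W-PSCs without overlap with either other culture, and *Pdgfa* was lowest in 2W-PSCs.

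For 7 of the 10 genes, all but *Hbegf*, *Ereg* and *Nrg1*, promoter sequences were taken from RefSeq (GRCm38.p6). The 250 bases before the start site are shown for *Fgf7* and *Vegfc*, which were called higher in 3W- than in 2W-PSCs, and for the 2 whose sequence holds a complete match to a searched motif of cyclic AMP or NFκB response, *Areg* and *Vegfa*. They were read at chr2:126034408-126034657 (plus strand) for *Fgf7*, chr8:54077282-54077531 (plus strand) for *Vegfc*, chr5:91139349-91139598 (plus strand) for *Areg* and chr17:46032378-46032627 (minus strand) for the first of the *Vegfa* start sites. Capitals mark motif matches, and the last base of each line lies directly before the start site.
Fgf7: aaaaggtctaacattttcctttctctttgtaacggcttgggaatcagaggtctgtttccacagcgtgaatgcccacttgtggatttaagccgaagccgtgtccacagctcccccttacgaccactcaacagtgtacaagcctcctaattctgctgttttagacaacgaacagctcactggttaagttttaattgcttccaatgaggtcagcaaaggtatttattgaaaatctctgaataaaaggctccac
Vegfc: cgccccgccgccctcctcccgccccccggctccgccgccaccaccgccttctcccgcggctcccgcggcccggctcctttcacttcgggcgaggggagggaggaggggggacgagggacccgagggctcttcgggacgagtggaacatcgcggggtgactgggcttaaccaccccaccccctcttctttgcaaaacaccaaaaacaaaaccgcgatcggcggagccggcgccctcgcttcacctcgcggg
Areg: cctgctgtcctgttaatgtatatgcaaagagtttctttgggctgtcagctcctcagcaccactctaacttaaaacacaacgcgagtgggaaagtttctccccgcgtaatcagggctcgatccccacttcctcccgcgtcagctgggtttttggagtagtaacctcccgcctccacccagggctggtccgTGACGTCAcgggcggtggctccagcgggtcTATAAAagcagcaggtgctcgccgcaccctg
Vegfa: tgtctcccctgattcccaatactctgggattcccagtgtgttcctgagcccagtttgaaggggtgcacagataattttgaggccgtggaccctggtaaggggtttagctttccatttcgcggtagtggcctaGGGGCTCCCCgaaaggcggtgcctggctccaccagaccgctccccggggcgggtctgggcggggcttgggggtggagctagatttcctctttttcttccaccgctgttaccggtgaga
The *Areg* sequence held the cyclic AMP response element TGACGTCA, which starts at position -61 from the start site and occurs in 1.55% of the 32851 promoters of the same length, and the TATA box TATAAA at -31, which occurs in 12.4%. The *Vegfa* sequence held an NFκB motif at -118, which occurs in 3.90%. Both strands were searched, and none of these matches overlap. The *Fgf7* and *Vegfc* sequences held none of the searched motifs, and among all 10 promoters of the 7 genes there was also no match to the AP-1 motif TGANTCA (6.75% of all promoters), the STAT motif TTCNNNGAA (7.02%) or the CArG box (1.47%). The hypoxia motif GACGTG (5.20%) was found only near a further *Vegfa* start site. The *Fgf7* sequence had 43.6% G and C and 6 CpG, and the *Vegfc* sequence 71.6% and 30, beside medians of 52.4% and 6 over all promoters. These matches describe the sequence, and the binding of no factor was measured.

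*Hbegf*, which encodes heparin-binding EGF-like growth factor, a ligand of EGFR and ERBB4, was the most abundant of the 10 growth factor genes in both co-cultures. Mono-PSC replicates 1 to 4 had 48.5, 35.7, 69.1 and 65.0 CPM. The 2W-PSC replicates had 133.7, 149.3, 109.7 and 88.6 CPM, and the 3W-PSC replicates 185.0, 153.4, 157.0 and 112.6 CPM. All libraries of both co-cultures were above all of mono-PSCs, and the co-cultures overlapped with each other. From 54.6 ± 15.4 CPM (SD, n = 4) in mono-PSCs, *Hbegf* rose 2.77-fold to 152.0 ± 29.8 in 3W-PSCs (log2 fold change 1.47, SE 0.21, adjusted p = 4.595e-05). In 2W-PSCs it averaged 120.3 ± 26.7 CPM, with a log2 fold change of 1.16 over mono-PSCs (SE 0.25) that just missed the call (adjusted p = 0.0509). That adjusted p-value ranged from 0.00231 to 0.176 over 15 alternatives and passed in 4 of them, among them the fit without 2W-PSC replicate 2 (0.0261). Between 3W- and 2W-PSCs the difference was 0.34 on the log2 scale, with a 95% interval from -0.12 to 0.79, and was not called (adjusted p = 0.336).

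*Ereg* encodes epiregulin, a low-affinity ligand of EGFR and ERBB4. Its level was 8.35, 4.16, 11.9 and 6.73 CPM in mono-PSC replicates 1 to 4. It was 18.1, 12.8, 10.8 and 12.5 CPM in 2W-PSCs and 55.8, 32.6, 44.5 and 19.5 CPM in 3W-PSCs. Every 3W library exceeded every library of the other cultures, with replicate 4 closest to them, and the mono and 2W libraries overlapped only between 10.8 and 11.9 CPM. The level in 3W-PSCs was 4.87-fold that in mono-PSCs (log2 fold change 2.28, SE 0.33, adjusted p = 5.515e-05) and 2.80-fold that in 2W-PSCs (1.49, SE 0.32, adjusted p = 0.0132). The call against 2W-PSCs passed in 14 of 15 alternatives and was lost without 3W-PSC replicate 1 (adjusted p = 0.0510). For 2W-PSCs against mono-PSCs the log2 fold change was 0.82 (95% interval 0.06 to 1.57), not called (adjusted p = 0.594).

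*Areg*, which encodes the EGFR ligand amphiregulin, is the neighbour of *Ereg* on chromosome 5, with *Ereg* at chr5:91074622-91093646 and *Areg* at chr5:91139599-91148432, both on the plus strand of GRCm38 with 45.95 kb and no other annotated gene between them. Its level was far lower. Mono-PSC replicates 1 to 4 had 5, 0, 2 and 0 counts (0.869, 0, 0.360 and 0 CPM). In 2W-PSCs the replicates had 5.32, 0.982, 1.75 and 1.92 CPM, and the 3W-PSC replicates 6.38, 3.83, 2.16 and 3.63 CPM. Both co-cultures were above mono-PSCs without overlap, and they overlapped with each other. In 3W-PSCs *Areg* was called higher than in mono-PSCs, with a log2 fold change of 3.69 (SE 0.76, adjusted p = 0.00159), a value that became 2.88 with a prior count of 2 in place of edgeR's default and 4.999 without mono-PSC replicate 1, which held 5 of the mono counts. *Areg* passed the filter on low counts there through the 3W libraries alone, so that it had to differ to be tested. In 2W-PSCs against mono-PSCs it did not pass that filter, and between 3W- and 2W-PSCs it was not called (0.64, 95% interval -0.55 to 1.83).

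*Nrg1* encodes neuregulin 1, a ligand of ERBB3 and ERBB4. Its level was 2.26, 2.58, 2.16 and 1.92 CPM in mono-PSC replicates 1 to 4. It was 6.59, 4.17, 2.86 and 2.56 CPM in 2W-PSCs and 7.31, 6.04, 12.2 and 5.97 CPM in 3W-PSCs. Mono-PSCs were close together, 2W-PSCs spread from just under the highest mono library to within the range of 3W-PSCs, and all 3W libraries were above all mono libraries. The rise in 3W-PSCs over mono-PSCs was 3.53-fold (log2 fold change 1.82, SE 0.37, adjusted p = 0.00157). Neither the difference of 2W-PSCs from mono-PSCs (0.88, adjusted p = 0.823) nor that of 3W- from 2W-PSCs (0.95, adjusted p = 0.155) was called.

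Of the other EGF family ligands, 7 were in the table and 1 had enough counts to be tested. This was *Btc*, which encodes the EGFR and ERBB4 ligand betacellulin, at 5.08 CPM in mono-PSCs, 11.4 in 2W-PSCs and 14.1 in 3W-PSCs. It was called higher in 3W-PSCs against mono-PSCs alone (log2 fold change 1.47, adjusted p = 6.942e-04), not in the other comparisons. *Egf*, *Tgfa* and *Epgn* averaged at most 0.445 CPM in every culture, *Nrg2* was highest in mono-PSCs at 1.62 CPM, and *Nrg3* and *Nrg4* were at 0 in all 12 libraries.

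*Fgf7*, which encodes keratinocyte growth factor, a mesenchymal factor that acts on epithelium, was called in both comparisons with 3W-PSCs. Mono-PSC replicates 1 to 4 had 31.5, 22.8, 24.5 and 17.8 CPM. The 2W-PSC replicates had 27.5, 25.3, 45.7 and 31.9 CPM, and the 3W-PSC replicates 69.1, 62.6, 62.7 and 46.8 CPM. The 3W libraries were above all others, with the lowest of them (46.8) only just above the highest 2W library (45.7), and mono- and 2W-PSCs overlapped. *Fgf7* rose 2.50-fold from mono- to 3W-PSCs (log2 fold change 1.32, SE 0.20, adjusted p = 9.16e-05) and was 1.84-fold higher in 3W- than in 2W-PSCs (0.88, SE 0.22, adjusted p = 0.0280). The second call passed in 9 of 15 alternatives, among them 3 of the 8 fits with 1 library left out. It was lost without 2W-PSC replicate 1 or 4 or 3W-PSC replicate 1, 2 or 3, and with a replicate block (adjusted p-values up to 0.0926). Against mono-PSCs, the log2 fold change in 2W-PSCs was 0.46 (95% interval -0.11 to 1.03, adjusted p = 0.863).

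*Fgf2*, which encodes basic fibroblast growth factor, was near the limit of detection. It had no count in mono-PSCs, where 0 of 24664093 counts allow a level of up to 0.122 CPM by counting error alone. In 2W-PSCs the replicates had 4, 0, 5 and 5 counts and the 3W-PSC replicates 3, 5, 1 and 6. The means of 0.538 ± 0.376 CPM in 2W-PSCs and 0.471 ± 0.277 in 3W-PSCs (SD, n = 4) overlapped. All 3W libraries had at least 1 count and no mono library had any, but edgeR did not test the gene in any comparison. *Fgf2* shares 640 bases of exon with *Nudt6* on the opposite strand, and as the strand setting of the counting was not stated, reads of this pair may not be separated.

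Of 9 other FGF ligands in the table, 2 had enough counts to be tested, and they moved in opposite directions. *Fgf10*, which encodes a further FGF of the *Fgf7* subfamily, was at 20.4 CPM in mono-PSCs, 20.3 in 2W-PSCs and 30.8 in 3W-PSCs, and was called higher in 3W- than in mono-PSCs (log2 fold change 0.59, adjusted p = 0.0308). *Fgf18* fell from 5.42 CPM in mono-PSCs and 3.02 in 2W-PSCs to 0.166 in 3W-PSCs, where 3 of the 4 libraries had no count. The 3W libraries lay below all others, and *Fgf18* was called lower against mono-PSCs (log2 fold change -4.95, adjusted p = 3.002e-04) and against 2W-PSCs (-4.11, adjusted p = 0.0159). It passed the filter on low counts there through the mono and 2W libraries alone, so that it had to differ to be tested.

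*Hgf* encodes hepatocyte growth factor, the mesenchymal ligand of MET, and had few counts in mono-PSCs. Mono-PSC replicates 1 to 4 had 1.04, 4.36, 0.900 and 1.08 CPM, that is, 6, 22, 5 and 9 counts. The 2W-PSC replicates had 3.08, 1.72, 2.38 and 3.03 CPM, and the 3W-PSC replicates 9.04, 7.66, 4.96 and 4.15 CPM. Mono-PSC replicate 2 stood apart from the other mono libraries and exceeded the lowest 3W library, whereas 3W-PSCs were above 2W-PSCs without overlap. *Hgf* was called higher in 3W- than in mono-PSCs, 3.58-fold (log2 fold change 1.84, SE 0.50, adjusted p = 0.0116), and stayed called with each library left out, with 2.64 on the log2 scale without mono-PSC replicate 2. *Hgf* passed the filter on low counts against mono-PSCs with 1 mono library over the limit. The 2.48-fold difference between 3W- and 2W-PSCs just missed the call (log2 fold change 1.31, SE 0.38, adjusted p = 0.0514). That value lay between 0.0244, with DESeq2, and 0.168 over 14 alternatives. In 2W-PSCs against mono-PSCs the log2 fold change was 0.53 (SE 0.61, adjusted p = 0.999), and 1.33 without mono-PSC replicate 2 (adjusted p = 0.772). Near its 3′ ends, 16.9% of the 75-base windows of *Hgf* also occur in *Gm43489*, a transcript on the same strand that is not listed in the count table. *Mst1*, the gene of the related ligand MSP, averaged at most 0.256 CPM and was not tested.

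*Pdgfa*, which encodes the A chain of platelet-derived growth factor, was the only one of the 10 growth factor genes whose lowest mean level was in 2W-PSCs. Mono-PSC replicates 1 to 4 had 73.2, 74.5, 75.8 and 74.3 CPM. In 2W-PSCs the replicates had 57.3, 38.1, 61.4 and 59.3 CPM, and the 3W-PSC replicates 90.6, 95.3, 74.3 and 67.2 CPM. The 2W libraries were below all libraries of both other cultures, and mono- and 3W-PSCs overlapped. Yet no comparison was called. The log2 fold change was -0.44 in 2W- against mono-PSCs (95% interval -0.86 to -0.01, adjusted p = 0.647), 0.59 in 3W- against 2W-PSCs (0.17 to 1.02, adjusted p = 0.0771) and 0.13 in 3W- against mono-PSCs (-0.19 to 0.45, adjusted p = 0.554). *Pdgfa* shares 813 exonic bases with the antisense gene *6330403L08Rik*, which had at most 102 counts in a library against 155 to 821 of *Pdgfa*.

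*Vegfa* encodes the main angiogenic factor of the VEGF family and was the most abundant of the 10 growth factor genes in mono-PSCs. Outside the 10, its relatives *Figf* and *Vegfb* averaged more there, at 160.2 and 112.4 CPM. Mono-PSC replicates 1 to 4 had 94.4, 56.9, 108.9 and 91.1 CPM. The 2W-PSC replicates had 106.9, 90.1, 98.4 and 63.1 CPM, and the 3W-PSC replicates 142.6, 152.3, 132.5 and 92.2 CPM. In 3W-PSCs 3 libraries were above all others, and replicate 4 fell within the range of mono- and 2W-PSCs, so that no cultures were separated. In 3W- against mono-PSCs *Vegfa* was called higher by a small margin, 1.47-fold (log2 fold change 0.56, SE 0.20, adjusted p = 0.0461). This call passed in 9 of 15 alternatives and was lost without mono-PSC replicate 2 or 4, or without 3W-PSC replicate 1, 2 or 3, with adjusted p-values of up to 0.141, and in a single fit of all 12 libraries (adjusted p = 0.0964). The log2 fold change was 0.05 in 2W- against mono-PSCs (95% interval -0.47 to 0.57) and 0.53 in 3W- against 2W-PSCs (0.07 to 0.99), neither of them called (adjusted p = 0.999 and 0.134).

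*Vegfc* encodes the lymphangiogenic factor VEGF-C, which needs proteolysis for full activity. Its level was 4.52, 1.59, 2.16 and 2.04 CPM in mono-PSC replicates 1 to 4. It was 2.24, 1.96, 2.699 and 4.15 CPM in 2W-PSCs and 13.6, 12.4, 8.27 and 4.28 CPM in 3W-PSCs. The 3W libraries were above all 2W libraries, replicate 4 only just, and that replicate was below 1 mono library. *Vegfc* was 3.71-fold higher in 3W- than in mono-PSCs (log2 fold change 1.89, SE 0.42, adjusted p = 0.00314) and 3.44-fold higher than in 2W-PSCs (1.78, SE 0.42, adjusted p = 0.0221). The second call passed in 10 of 14 alternatives, among them 5 of the 8 fits with 1 library left out. It was lost without 2W-PSC replicate 1 or 3W-PSC replicate 1 or 2, and with a replicate block (adjusted p-values up to 0.0890). Between 2W- and mono-PSCs the log2 fold change was 0.13 (95% interval -0.998 to 1.25, adjusted p = 0.999).

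Of 6 other PDGF and VEGF ligands, 5 were tested. *Figf*, which encodes VEGF-D, the closest relative of VEGF-C, was called lower in both co-cultures, from 160.2 CPM in mono-PSCs to 46.8 in 2W-PSCs (log2 fold change -1.75, adjusted p = 0.00220) and 37.6 in 3W-PSCs (-2.10, adjusted p = 5.248e-06). *Vegfb* was also lower in 3W- than in mono-PSCs (-0.56, adjusted p = 0.0111), and *Pdgfc* was higher (1.02, adjusted p = 0.00455). The remaining genes tested, *Pdgfd* and *Pgf*, were not called, and none of the 5 was called between 3W- and 2W-PSCs. *Pgf* was highest in 2W-PSCs, at 10.05 CPM beside 2.925 in mono-PSCs and 5.597 in 3W-PSCs, and its libraries did not overlap between any cultures. Its log2 fold change was 1.77 in 2W- against mono-PSCs (adjusted p = 0.1125) and -0.84 in 3W- against 2W-PSCs (adjusted p = 0.0964). *Pdgfb*, which encodes the B chain of PDGF, was not tested, since only 3 of its libraries passed the limit on low counts. It had 4, 0, 2 and 0 counts in mono-PSC replicates 1 to 4, 1, 0, 3 and 0 in 2W-PSCs and 21, 37, 36 and 9 in 3W-PSCs, and 3W-PSCs overlapped with neither other culture.

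**Figure D3:**
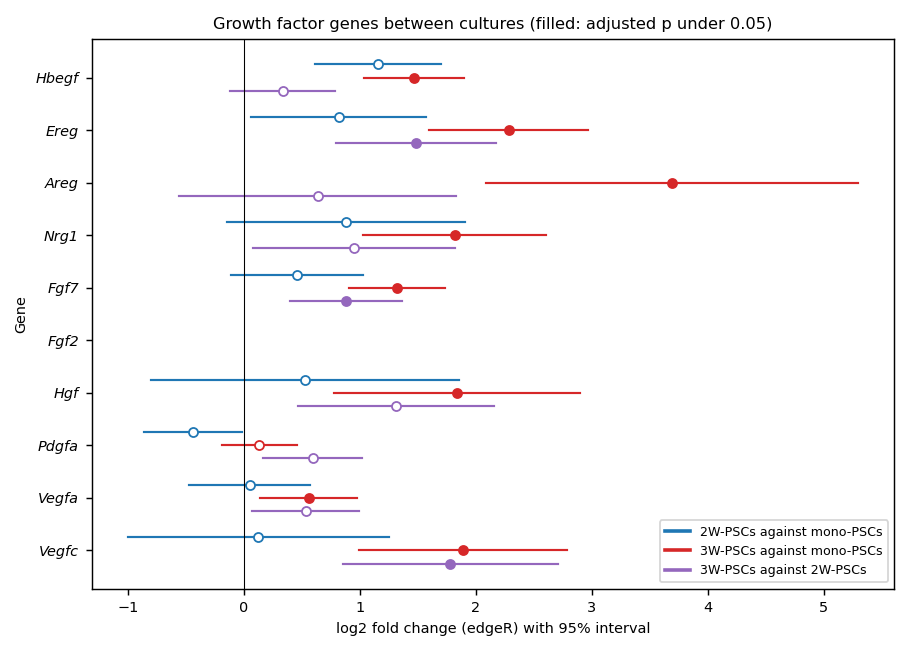
Log2 fold change of each growth factor gene in the 3 comparisons of cultures, from edgeR, with the 95% interval as a line. Filled points were called at an adjusted p under 0.05 over all genes tested, open points were not, and *Fgf2* and, in 2W- against mono-PSCs, *Areg* had too few counts for a test. The 8 filled points of 3W- against mono-PSCs lie between 0.56 (*Vegfa*) and 3.69 (*Areg*), where *Areg* passed the filter on low counts through the 3W libraries alone.

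Ordered by mean level, mono-PSCs ran from *Vegfa* (87.8 CPM), *Pdgfa* (74.4), *Hbegf* (54.6), *Fgf7* (24.1) and *Ereg* (7.78) to *Vegfc* (2.58), *Nrg1* (2.23), *Hgf* (1.85), *Areg* (0.307) and *Fgf2*. *Vegfa* overlapped with *Pdgfa* over the libraries, and so did neighbours from *Ereg* down to *Hgf*, and *Areg* with *Fgf2*. In 2W-PSCs *Hbegf* stood first (120.3 CPM), overlapping with *Vegfa* (89.6), and *Pdgfa* (54.0) and *Fgf7* (32.6) overlapped next. *Ereg* (13.5) stood clear of its neighbours, and *Nrg1* (4.04), *Vegfc* (2.76), *Hgf* (2.55) and *Areg* (2.49) overlapped in turn. In 3W-PSCs the order was *Hbegf* (152.0 CPM), *Vegfa* (129.9), *Pdgfa* (81.9), *Fgf7* (60.3), *Ereg* (38.1), *Vegfc* (9.63), *Nrg1* (7.88), *Hgf* (6.45), *Areg* (4.00) and *Fgf2* (0.471). There the only neighbours that did not overlap were *Ereg* and *Vegfc*, and *Areg* and *Fgf2*.

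Across the 12 libraries, the level of *Fgf7* on the log2 scale ran most closely with *Vegfc* among the growth factors (Pearson r = 0.889) and that of *Hbegf* with *Ereg* (0.873), whereas *Pdgfa* and *Hbegf* had the lowest correlation (-0.10). The points share their culture and library, so these values describe the pattern only. Among all genes with a mean log2 CPM above 3, the pattern of *Fgf7* was most like that of *Dram1* (r = 0.968), *Mob1b* and *Sdc1*, and that of *Hbegf* was most like *Etv4* (0.948), *Cpt1c* and *Skil*. *Ereg* ran with *Filip1l* (0.949), *Smad7* and *Sgk1*, *Nrg1* with *Mief1* (0.945), *Pdcd7* and *Btg1*, and *Areg* with *Igfbp7* (0.916), *2810474O19Rik* and *Usp42*. *Hgf* ran with *Enpp2* (0.920), *Phf11d* and *Adam19*, and *Vegfc* with *Gmeb1* (0.921), *Aebp2* and *Znrf1*. For *Vegfa* the nearest genes were *Zbed3* (0.926), *Yrdc* and *Nfkbiz*, and for *Pdgfa* they were *Pdk1* (0.919), *Pla2g16* and *Psmd8*. The nearest gene was thus at 0.916 or above for each of the 9 genes, among 8699 or 8700 candidates per gene.

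PSCs themselves expressed receptors of these factors, read here as a list that was also chosen with earlier results of these data known. Of 16 receptor and co-receptor genes in the table, 6 of 11 tested were called higher in 3W- than in mono-PSCs (13.4% of all genes), 1 of 10 in 2W- than in mono-PSCs (0.839%) and 5 of 10 in 3W- than in 2W-PSCs (5.73%), and none was called lower. *Egfr*, which encodes the receptor of HB-EGF, epiregulin and amphiregulin, was the 1 called in 2W-PSCs. It had 9.91, 4.76, 3.96 and 7.33 CPM in mono-PSC replicates 1 to 4. In 2W-PSCs the replicates had 21.6, 17.2, 17.6 and 21.1 CPM and the 3W-PSC replicates 16.9, 20.7, 20.1 and 16.6 CPM. Both co-cultures were above mono-PSCs without overlap and overlapped with each other. *Egfr* was called in 2W-PSCs (log2 fold change 1.59, SE 0.32, adjusted p = 0.0385) and in 3W-PSCs (1.496, SE 0.28, adjusted p = 7.977e-04) over mono-PSCs, while 3W- and 2W-PSCs differed by -0.07 (95% interval -0.49 to 0.36, adjusted p = 0.866). *Erbb2*, the gene of the shared ERBB partner without a ligand, averaged 10.01 to 13.4 CPM and was not called. *Erbb3*, the receptor gene for neuregulin 1, averaged at most 1.24 CPM, and *Erbb4* was at 0 in all libraries.

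Several receptor genes of the FGF, PDGF and VEGF families were called higher in 3W-PSCs. *Fgfr1*, the main FGF receptor gene of mesenchyme, averaged 34.01 ± 13.8 CPM in mono-PSCs, 60.4 ± 9.76 in 2W-PSCs and 148.9 ± 31.6 in 3W-PSCs (SD, n = 4), and was called against both (log2 fold changes 2.12 and 1.30, adjusted p = 3.414e-06 and 0.00206). *Pdgfra*, the receptor gene for PDGF-AA, averaged 6.80, 14.4 and 34.6 CPM and was called likewise (2.33 and 1.26, adjusted p = 7.418e-07 and 0.00522). *Flt1*, which encodes VEGF receptor 1, averaged 11.4, 16.2 and 47.1 CPM (2.03 and 1.54, adjusted p = 8.151e-06 and 5.384e-04). For all of these genes the 3W libraries were above all mono and 2W libraries. *Nrp2*, the gene of a co-receptor for VEGF-C, averaged 25.4, 36.2 and 116.3 CPM (2.18 and 1.68, adjusted p = 7.508e-07 and 4.136e-04). *Kdr*, which encodes VEGF receptor 2, was low, with 1.43, 0.859 and 4.15 CPM, and was called in 3W- against 2W-PSCs (2.34, adjusted p = 0.0374), where 1 of the 2W libraries was over the limit on low counts. *Nrp1*, the gene of a co-receptor for VEGF-A, averaged 84.7, 175.1 and 152.9 CPM and was called in 3W- against mono-PSCs (0.84, adjusted p = 0.00468).

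The receptor genes of HGF and FGF7 were not called. *Met*, which encodes the receptor of HGF, averaged 31.7 ± 4.83 CPM in mono-PSCs, 24.5 ± 9.56 in 2W-PSCs and 23.8 ± 2.65 in 3W-PSCs (SD, n = 4) and was not called, with a log2 fold change of -0.43 in 3W- against mono-PSCs (95% interval -0.82 to -0.03, adjusted p = 0.101). *Fgfr2*, one form of which is the receptor of FGF7, averaged at most 0.661 CPM in any culture and was not tested. Likewise *Fgfr4* and *Flt4*, the VEGF-C receptor gene of lymphatic endothelium, had too few counts. *Fgfr3* was tested against mono-PSCs in both co-cultures and not called, and *Pdgfrb* averaged 76.6, 124.6 and 123.0 CPM and was not called either.

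**Figure D4:**
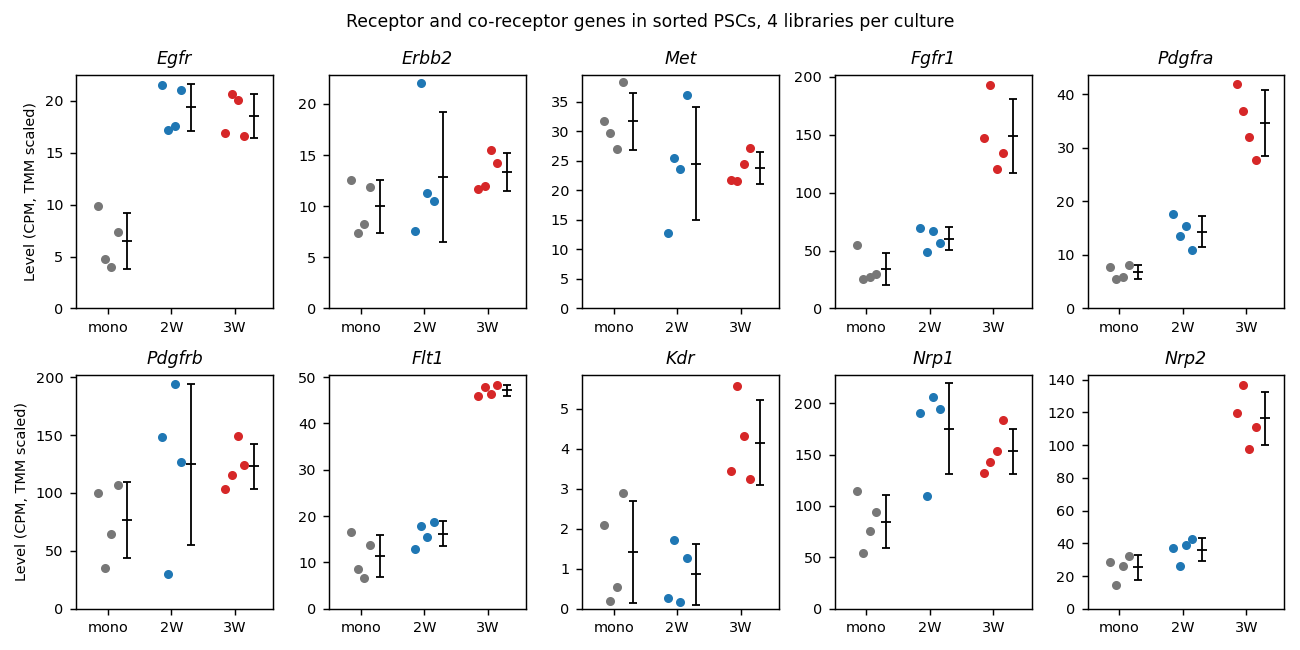
Level (CPM, TMM scaled, linear axes that start at 0) of 10 receptor and co-receptor genes of the growth factors in mono-, 2W- and 3W-PSCs. Points are libraries, and the bar beside them is the mean with the SD of 4 libraries. *Egfr* was higher in both co-cultures than in mono-PSCs, whereas *Fgfr1*, *Pdgfra*, *Flt1* and *Nrp2* were highest in 3W-PSCs without overlap, and *Met* overlapped between all cultures.

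Genes that release, activate or inhibit these ligands were read as a list of 16. Between 3W- and 2W-PSCs, 10 were tested, 2 were called higher and 1 lower (5.73% and 4.95% of all genes). *Adam17*, which encodes the main sheddase of EGF family ligands, was at 75.1, 75.3, 76.8 and 84.2 CPM in 3W-PSC replicates 1 to 4. It was at 42.5, 30.7, 37.0 and 50.2 CPM in 2W-PSCs and at 46.1, 25.96, 39.1 and 60.8 CPM in mono-PSCs. The 3W libraries were above all others, and *Adam17* was called against 2W-PSCs (log2 fold change 0.95, SE 0.18, adjusted p = 0.00724) and mono-PSCs (0.84, SE 0.21, adjusted p = 0.00585). *Timp3*, the gene of an inhibitor of ADAM17, averaged 1125, 999.4 and 460.1 CPM in mono-, 2W- and 3W-PSCs and was called lower in 3W-PSCs against both (log2 fold changes -1.30 and -1.12, adjusted p = 2.006e-05 and 0.0131). *Ccbe1*, which encodes a cofactor of VEGF-C processing, averaged 0.654, 3.95 and 13.5 CPM and was called higher in 3W-PSCs against both (4.34 and 1.81, adjusted p = 1.85e-06 and 0.0309). Its processing protease gene *Adamts3* was at 0 in every library. Against mono-PSCs, 5 of 9 genes tested were called higher in 3W-PSCs, with *Furin*, *Adam12* and *Spint1* beside *Adam17* and *Ccbe1*, and 1 lower (13.4% and 13.0% of all genes). *Adam12*, *Spint1* and *Ccbe1* passed the filter on low counts through the 3W libraries alone, as their mono libraries had at most 0.721, 0.869 and 0.900 CPM at a limit of 1.37, so that these had to differ to be tested. *Spint1*, the gene of an inhibitor of HGF activation, is also 1 of the epithelial markers above. The activators of HGF *Hgfac*, *Hpn* and *St14* averaged at most 1.19 CPM.

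The ERK pathway lies downstream of all these receptors, and 18 of its response and feedback genes were tested. In 2W-PSCs 2 were called higher than in mono-PSCs (0.839% of all genes), in 3W-PSCs 12 were called higher than in mono-PSCs (13.4%) and 5 higher than in 2W-PSCs (5.73%), and none was called lower. The median log2 fold changes were 0.65, 1.26 and 0.53. As this list was chosen with earlier results of these data known, the shares beside it are a description and not a test. The 2 called in 2W-PSCs were *Etv4* (1.94, adjusted p = 0.00951), which encodes an ETS transcription factor, and *Dusp5* (1.59, adjusted p = 0.0419), which encodes a phosphatase of ERK. The 5 called between 3W- and 2W-PSCs were *Fosl1*, *Lrig1*, *Phlda1*, *Spred2* and *Errfi1*. *Fosl1*, the gene of the AP-1 subunit FRA1, was at 82.5, 62.6, 58.1 and 53.6 CPM in 3W-PSC replicates 1 to 4, above all libraries of 2W-PSCs (5.16 to 18.5) and mono-PSCs (4.76 to 15.7), with a log2 fold change of 2.22 over 2W-PSCs (adjusted p = 0.00183). *Errfi1* and *Lrig1* encode inhibitors of EGFR, with log2 fold changes over 2W-PSCs of 1.203 (adjusted p = 0.0469) and 1.62 (adjusted p = 0.0188). *Egr1*, *Spry1*, *Spry2*, *Spry4* and *Dusp4* were not called in any comparison. Which ligands or cells acted on these genes was not tested.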

How the data were processed

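Polyadenylated RNA of sorted PSCs was measured in 12 libraries. The authors prepared them with the QuantSeq 3′ FWD kit, sequenced single 75-base reads, checked them with FastQC, mapped them with STAR (GRCm38) and used featureCounts to count reads per Ensembl gene. The deposited values were used as raw counts: the methods describe normalised counts, but these are whole numbers with unequal totals per library. No molecular identifiers are named, so intervals and limits cover counting error only. Columns were assigned to samples through the number in each name.

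From these counts, cultures were compared in pairs with edgeR 4.0.16 (R 4.3.3): TMM scaling, filterByExpr, glmQLFit and glmQLFTest on the 8 libraries of a pair, and Benjamini-Hochberg adjustment over all genes tested. Fold changes used edgeR's default prior count. Single levels were compared with exact permutation tests (SciPy 1.17.1). Likeness was the Pearson correlation of log2 CPM (prior count 2) among genes with a mean above 3.

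Every member was named, with every receptor and the genes of the ligand, shedding and ERK lists called between 3W- and 2W-PSCs. Other genes were named after their values were seen, as the only ones of a list that were tested, called or absent. The members and lists were chosen with earlier results of these data known. Positions, exon overlaps and shared 75-base windows within the last 500 bases of transcripts came from GENCODE M21, and promoters from RefSeq. The tests were tried on simulated counts first.

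Alternatives were DESeq2's size factors, no filter on low counts, a minimum of 10 counts per library, a single fit of all 12 libraries, DESeq2 1.42.0, a replicate block, each library left out in turn, a prior count of 2, and a call rule with an absolute log2 fold change above 1.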

Additional observations from a re-analysis of the deposited data

Results flagged for a closer look

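The level of *Hgf* in mono-PSC replicate 2, 4.36 CPM, was far from the other mono libraries, of which the next was at 1.08 CPM. Its gap to that library was 0.947 of the range of the 4, above Dixon's 95% critical value. It was the only such value among 29 sets of 4 libraries, and chance alone gives about 1 in 20. The library had 22 counts of *Hgf*, and *Hgf* stayed called in 3W- against mono-PSCs without it.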

How the results depend on the processing

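Over 382 alternative values of single growth factors, 354 kept their direction and their side of the threshold, 17 lost a call, 6 gained one and 5 changed sign. The sign changed with 1 library left out for differences near 0 in 2W- against mono-PSCs: *Vegfa* ranged from -0.13 to 0.18 and was below 0 without mono-PSC replicate 2 or 2W-PSC replicate 1 or 3, and *Vegfc* ranged from -0.15 to 0.52 and was below 0 without mono-PSC replicate 2 or 2W-PSC replicate 4. In 2W- against mono-PSCs, the 111 genes called became 177 with no filter, 57 with at least 10 counts in every library, 262 with all 12 libraries in one fit and 275 with DESeq2, and 1 growth factor, *Hbegf*, was called in place of 0 with no filter, in the fit of 12 and with DESeq2. With 1 library left out, 61 to 233 genes and 0 to 1 growth factors were called, 233 and 1 without 2W-PSC replicate 2. In 3W- against mono-PSCs, the 3054 genes became 1380 at an absolute log2 fold change above 1, and the 8 growth factors became 5 with at least 10 counts in every library, where fewer were tested. With 1 library left out, 2228 to 4266 genes and 7 to 8 growth factors were called. In 3W- against 2W-PSCs, the 1230 genes became 672 at an absolute log2 fold change above 1. With 1 library left out, 497 to 2107 genes and 0 to 3 growth factors were called: 0 without 3W-PSC replicate 1, 1 without 3W-PSC replicate 2 or 2W-PSC replicate 1, and 2107 genes without 2W-PSC replicate 2. Where no cause is given, the cause was not tested.

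With a replicate block, 135, 3092 and 752 genes and 0, 8 and 1 growth factors were called in 2W- against mono-PSCs, 3W- against mono-PSCs and 3W- against 2W-PSCs. In the last, *Ereg* remained (adjusted p = 0.0234), and *Fgf7* (0.0530) and *Vegfc* (0.0890) were not called. Libraries with the same number had correlated deviations from their culture means of -0.0476 to 0.338 (median 0.0893), 5 of 12 pairs were above 0.1 (other pairs: median -0.0393, 4 of 36 above 0.1), and 8 of the 12 libraries correlated best with their own number. The 4 pairs of mono- and 2W-PSCs were at 0.099 to 0.338. As not every pair exceeded 0.1 and no label ties the numbers to a shared batch, they were not taken as pairs.

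Depth limits the low genes: *Fgf2* had at most 6 counts in a library, and *Areg* at most 5 in mono-PSCs.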
